A study of Cavia porcellus with 44 samples.

Results

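The genes described here encode the nuclear part of the mitochondrial respiratory chain, carriers that lie mostly in the inner mitochondrial membrane, and the machines that import proteins into mitochondria. They were taken by their symbols: NDUF (complex I), SDHA to SDHD (complex II), UQCR (complex III), COX followed by a digit (complex IV), ATP5 (ATP synthase), SLC25A and UCP (carriers), and TOMM and TIMM (import through the outer and the inner membrane). In the table of variance-stabilized values 112 of 7747 symbols matched. NDUFA4 and its paralogue NDUFA4L2 were counted with complex IV, which holds the NDUFA4 protein. By role they formed 10 classes: 31 complex I subunits, 4 complex I assembly factors, 4 complex II subunits, 6 complex III subunits, 14 complex IV subunits, 5 complex IV assembly factors, 11 ATP synthase genes, 24 carriers, 6 outer membrane import genes and 7 inner membrane import genes. Among all rows of counts, 119 symbols matched. The 7 that fell under the minimum of 200 counts over all animals were ATP5ME, ATP5MJ, COX6A2, NDUFS4, SLC25A31, SLC25A41 and UCP1, with totals of 4 to 172 counts. For ATP5ME, ATP5MJ and NDUFS4 a second row of the same symbol passed, written NDUFS4.1 and likewise. SLC25A6, SLC25A13 and SLC25A15 were not analysed here.

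In hepatocytes the respiratory complexes pass electrons from NADH and succinate to oxygen and pump protons across the inner membrane, and ATP synthase uses the proton gradient to make ATP. Most of their subunits are encoded in the nucleus and imported as precursor proteins, while a small core set is encoded by mitochondrial DNA. The carriers exchange ADP and ATP, phosphate, citrate, 2-oxoglutarate, amino acids, acylcarnitines and cofactors between the matrix and the cytosol, so that they join oxidation of fuel to lipid synthesis, urea synthesis and gluconeogenesis in the liver.

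Liver RNA of 44 guinea pigs, female Hartley animals that had been semi-fasted overnight, was sequenced after 32 weeks on diets that differed in fat, cholesterol, sucrose and vitamin C (vitC). The low fat feed held 3.8% fat, no cholesterol and no sucrose, and the high fat feed 20% fat, 0.35% cholesterol and 15% sucrose. High vitC was 2000 mg/kg feed and low vitC 50 mg/kg feed. LFH animals (n = 8) stayed on low fat feed with high vitC and were pair-fed to HFH animals (n = 8), which stayed on high fat feed with high vitC. The other 4 groups received high fat feed with low vitC for 16 weeks. For the second 16 weeks HFL/HFL animals (n = 10) stayed on it, HFL/HFH animals (n = 6) changed to high vitC, HFL/LFL animals (n = 6) changed to low fat feed with low vitC, and HFL/LFH animals (n = 6) changed to low fat feed with high vitC. The HFL/LFL animals were pair-fed to HFL/HFL animals and the HFL/LFH animals to HFL/HFH animals. Fat, cholesterol and sucrose changed together, so their parts in a feed difference cannot be told apart. Each animal gave 1 library of bulk liver tissue, in which fewer cells of a type and less RNA per cell cannot be told apart.

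The libraries held 21133807 to 35427724 counts. Levels are given as CPM, counts relative to a common library size, after scaling by TMM, a method of edgeR that sets the typical symbol equal between libraries. The floor was set at 3 counts, or 0.0641 to 0.174 CPM, which allows for counting error alone. The scaling matters for these data. ALB, APOE, SERPINA1 and 7 other abundant symbols took a median of 23.9% of counts in LFH and 18.8% in HFH, and with plain library totals the median log2 fold change of all 7629 symbols tested between LFH and HFH moved from -0.06 to -0.62. The corresponding shift was 0.46 between HFL/LFH and HFL/HFH and 0.33 between HFL/LFL and HFL/HFL. Of the 10 abundant symbols APOE, PPFIA3, EEF1A1 and STK19 had lower mean shares in LFH than in HFH, and the others higher. When all 10 were left out, totals still called 55.8% of symbols lower in LFH than in HFH, beside 62.6% with them. A member is therefore called higher or lower below relative to the typical symbol, and counts of calls by plain totals are given for each comparison, with values for most of the genes described. As a share of all counts the 112 members together took a median of 1.54% in LFH and 1.56% in HFH, 1.43% in HFL/LFH and 1.60% in HFL/HFH, and 1.53% in HFL/LFL and 1.64% in HFL/HFL. The check of the tissue rested on 4 of 15 hepatocyte markers, since the others are not in the table. ALB, APOA2, SERPINA1 and AHSG together ranged from 27316 to 238309 CPM over all animals.

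The first question was how feed with low or high fat and cholesterol was related to the module when it was given for the whole period. Relative to the typical symbol, LFH exceeded HFH in most genes of the respiratory chain. Of 112 members 75 were higher and 5 lower in LFH (edgeR quasi-likelihood test, Benjamini-Hochberg adjusted p under 0.05 over all symbols), which is 71.4% called against a background of 49.1% of all symbols tested (21.6% higher and 27.5% lower). At an unadjusted p under 0.05 there were 83 members, against 54.5% of all symbols. The median log2 fold change of the members was 0.49, and that of all symbols -0.06. The CPM ranges of the groups did not overlap for 40 members, against 16.8% of all symbols. Of these 38 lay higher in LFH (8% of all symbols) and 2 lower (8.83%). By plain library totals 9 members were higher and 32 lower, beside 6.08% of all symbols higher and 62.6% lower, and 5 of the members called higher by TMM were called lower.

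The members called in LFH against HFH are given here by class, and whether the classes differed was not tested. Higher in LFH were 29 of 31 complex I subunits, 4 of 4 complex II subunits, 6 of 6 complex III subunits and 10 of 14 complex IV subunits, with median log2 fold changes of 0.63, 0.46, 0.56 and 0.69. No gene of these classes was called lower. The complex II calls include the SDHB row, whose counts are also those of ATP13A2. ATP synthase followed with 7 of 11 higher and a median of 0.54. These counts are by symbol. NDUFC2 with NDUFC2.KCTD14, UQCRH with UQCRHL, and ATP5MG with ATP5MGL were all among the higher, and each pair shares its counts and is 1 measurement. Of the import genes, 2 of 6 of the outer membrane (median 0.19) and 5 of 7 of the inner membrane (median 0.34) were higher, the latter including both rows of TIMM13. The carriers went both ways, as did all symbols (21.6% higher and 27.5% lower), with 7 of 24 higher, 5 lower and a median of 0.11. Plain totals left 3 complex I subunits higher and 1 lower (median 0.073), 1 complex II subunit higher and 1 lower, 1 complex III subunit and 2 complex IV subunits lower, and 3 ATP synthase genes lower. The import genes were then lower for 5 of 6 of the outer and 3 of 7 of the inner membrane, and the carriers were higher for 4 and lower for 12. Beside these class counts, plain totals called 6.08% of all symbols higher and 62.6% lower.

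After the switch the same feed contrast was made among animals that had all begun on high fat feed with low vitC. With high vitC after the switch (HFL/LFH against HFL/HFH), 48 members were higher and 4 lower on low fat feed, against a background of 35.9% of symbols called (16.5% higher and 19.4% lower), and the median was 0.29. With low vitC (HFL/LFL against HFL/HFL), 43 were higher and 7 lower against a background of 37.7% (18.1% higher and 19.6% lower), and the median was 0.17. By plain totals the splits were 6 higher and 25 lower, and 10 higher and 27 lower, in that order. All symbols by plain totals gave 5.13% higher and 47.3% lower in the former, and 6.48% and 39.3% in the latter. Groups did not overlap for 24 members in the former, against 16.1% of all symbols, with 20 higher (6.23% of all symbols) and 4 lower (9.86%). In the latter they did not overlap for 10 members, against 9.86%, with 7 higher (3.88%) and 3 lower (5.98%). Complex I had 17 of 31 subunits higher with high vitC and 14 higher and 1 lower with low vitC. Complex IV subunits were called higher for 10 of 14 in the former and 3 of 14 in the latter, with medians of 0.42 and 0.16. By plain totals complex I had 2 subunits lower in the former, and 2 higher and 6 lower in the latter, and complex IV had 2 and 4 subunits lower. Whether these class counts differed was not tested.

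**Figure D1:**
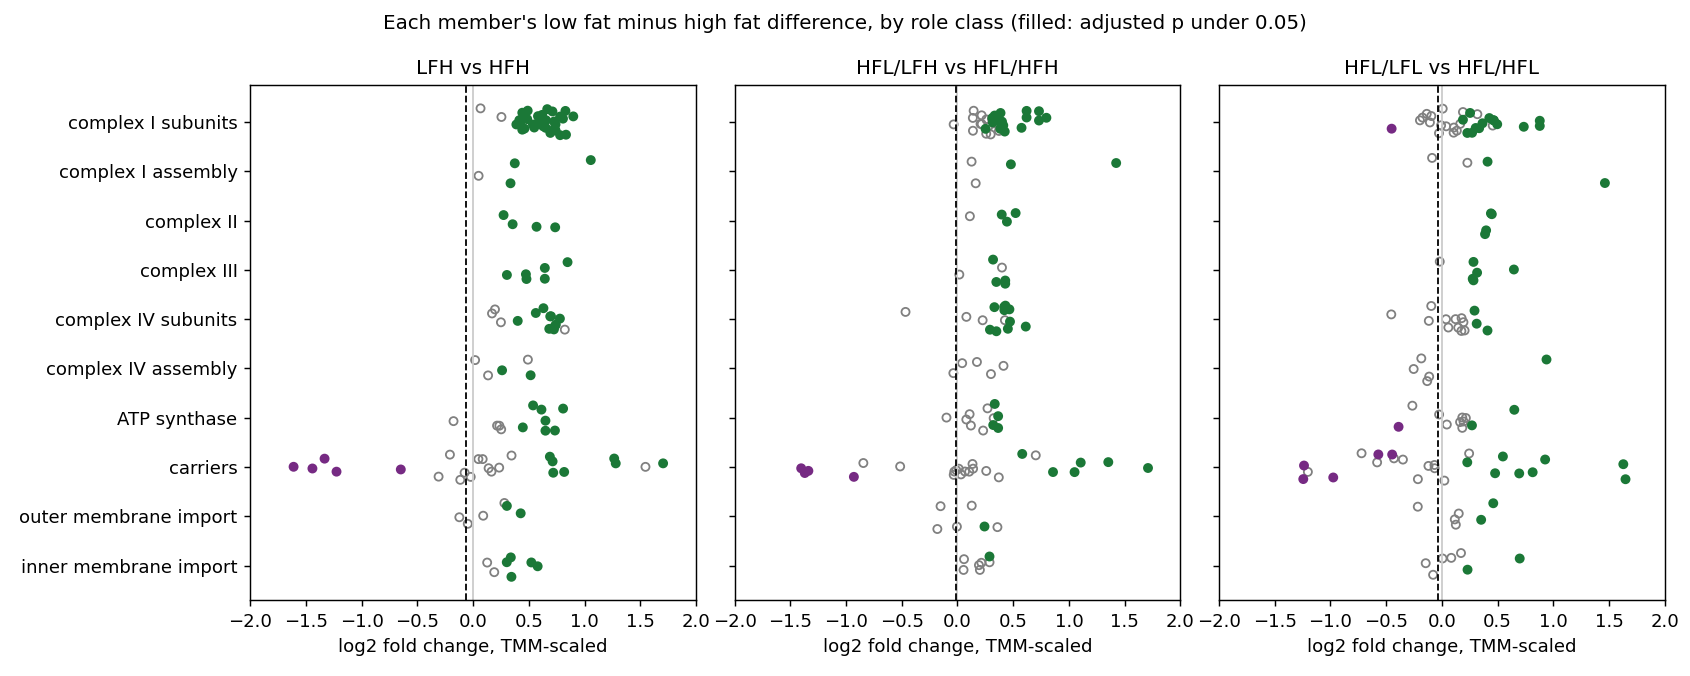
Log2 fold change (low fat minus high fat, TMM-scaled) of each of the 112 members in the 3 feed comparisons, by role class. Filled points passed an adjusted p of 0.05 (green higher, purple lower), open points did not, and the dashed line is the median of all symbols tested. Complex I to IV lie to the right of that line in LFH vs HFH, and the carriers spread from -1.61 to 1.70.

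Across the 3 feed comparisons 32 members were higher on low fat feed in all, 4 were lower in all and 21 were called in none. Of all symbols, 10.5% were higher in all 3 and 13.4% lower in all 3. The 32 symbols include NDUFC2 with NDUFC2.KCTD14 and UQCRH with UQCRHL, each pair listed with the same counts and so 1 measurement, and SLC25A22, whose counts are also those of PIDD1. By symbol they were 13 complex I subunits, 6 carriers, 3 members each of complexes II, III and IV, 2 complex I assembly factors, and 1 gene each of the outer and inner membrane import. No ATP synthase gene and no complex IV assembly factor was called in all 3. When a call had also to hold by plain library totals in each comparison, 4 members stayed higher, SLC25A42, SLC25A1, SLC25A11 and NDUFAF1, and 4 stayed lower, SLC25A24, UCP2, SLC25A45 and SLC25A43. Among all symbols 3.29% met this for higher and 13.4% for lower.

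**Figure D2:**
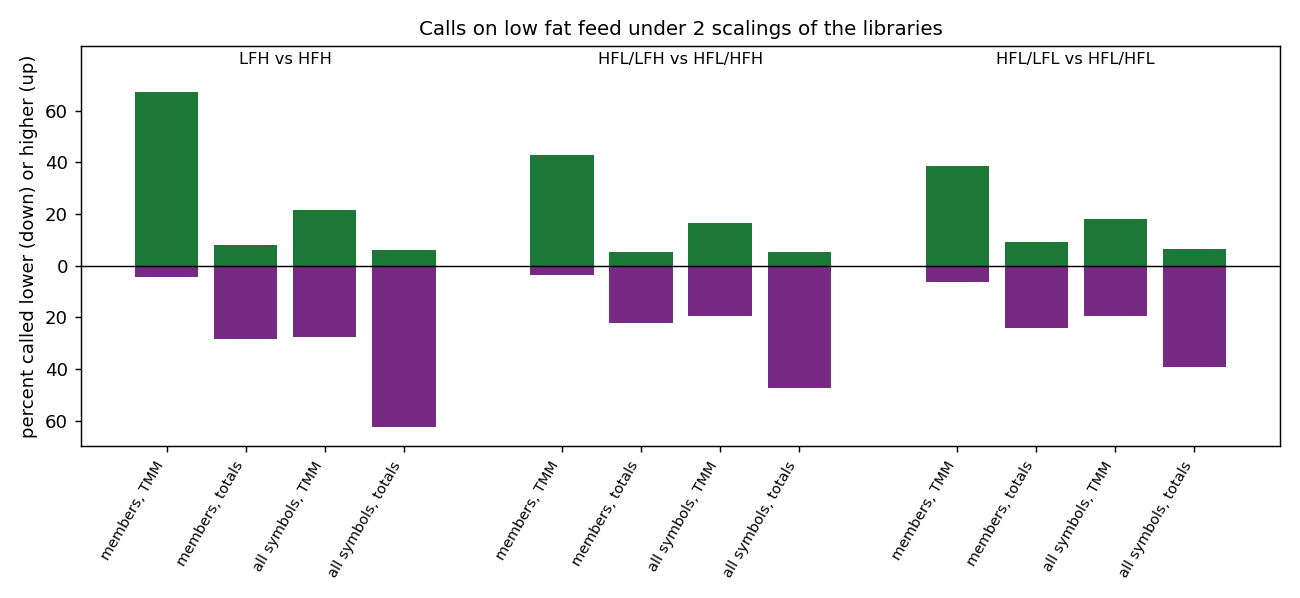
Percent of the 112 members and of all 7629 symbols called higher (up, green) or lower (down, purple) on low fat feed in the 3 feed comparisons, with TMM scaling and with plain library totals. In LFH vs HFH the members were called higher for 67% with TMM and for 8.04% with plain totals.

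Complex I takes electrons from NADH. NDUFV1, the subunit that binds NADH and FMN, had 484 to 660 CPM in LFH (median 602) and 272 to 403 CPM in HFH (median 324). Every LFH animal lay above every HFH animal, and the log2 fold change was 0.81 ± 0.10 SE (edgeR adjusted p = 2.79e-09). In the animals switched to low fat feed its medians were 529 CPM for HFL/LFL and 581 CPM for HFL/LFH, against 377 CPM in HFL/HFL and 384 CPM in HFL/HFH. The differences were 0.62 ± 0.11 with high vitC (edgeR adjusted p = 1.62e-05) and 0.46 ± 0.10 with low vitC (edgeR adjusted p = 0.000194). With plain totals they were 0.26 in LFH against HFH, which passed, and 0.16 and 0.14 after the switch, which did not.

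The accessory subunit NDUFA2 ran from 70.8 to 107 CPM in LFH and from 42.9 to 62.5 CPM in HFH, with medians of 87.8 and 55.02. It did not overlap between the feeds in any of the 3 comparisons, and its log2 fold changes were 0.74 ± 0.08, 0.62 ± 0.10 and 0.47 ± 0.09 (edgeR adjusted p = 1.06e-09, 1.95e-06 and 3.08e-05). With plain totals these were 0.19, 0.16 and 0.15, and none passed. NDUFC2, a subunit of the membrane arm, is listed with the same counts as the readthrough symbol NDUFC2.KCTD14, so that the pair is 1 measurement. It had a median of 154 CPM in LFH (128 to 197) and 91.3 CPM in HFH (67.8 to 114). With low vitC it rose from a median of 79.9 CPM in HFL/HFL (47.1 to 107) to 145 CPM in HFL/LFL (120 to 174), and the groups did not overlap (log2 difference 0.88 ± 0.15, edgeR adjusted p = 7.29e-06). That difference passed with plain totals too, at 0.55, while 0.23 in LFH against HFH did not.

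Of the 4 assembly factors of complex I in the table, NDUFAF1, which acts early in building the membrane arm, showed the largest change. It had 7.71 to 25.4 CPM in LFH (median 17.5) and 3.58 to 12.6 CPM in HFH (median 8.12), and the log2 fold change was 1.06 ± 0.26 (edgeR adjusted p = 0.000757). One LFH animal lay within the HFH range. After the switch the medians were 18.8 CPM for HFL/LFL and 17.1 CPM for HFL/LFH against 6.85 CPM in HFL/HFL and 6.69 CPM in HFL/HFH, with log2 fold changes of 1.46 ± 0.26 (low vitC) and 1.42 ± 0.30 (high vitC). Plain totals gave 0.53 in LFH against HFH, 1.15 with low vitC and 0.94 with high vitC, and all passed. NDUFAF5, which modifies the NDUFS7 subunit, changed by 0.34 ± 0.12, 0.48 ± 0.14 and 0.41 ± 0.13, and its call in LFH against HFH was lost without LFH animal 25 (edgeR adjusted p = 0.0866) and without LFH animal 27. With plain totals its values were -0.23, 0.0053 and 0.082, none of which passed.

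Complex II, succinate dehydrogenase, is also an enzyme of the citric acid cycle. SDHC, one of its membrane anchors, had 334 to 457 CPM in LFH (median 402) and 199 to 291 CPM in HFH (median 236), without overlap, and the log2 fold change was 0.74 ± 0.09 (edgeR adjusted p = 3.91e-09). The other anchor, SDHD, had a median of 180 CPM in LFH (166 to 204) and 123 CPM in HFH (81.8 to 153), also without overlap (0.57 ± 0.12, edgeR adjusted p = 0.000121). With plain totals the difference of SDHC was 0.19 and passed, and that of SDHD was 0.035 and did not. The flavoprotein subunit SDHA overlapped between the groups, with 377 to 652 CPM in LFH and 300 to 525 CPM in HFH. Its log2 fold changes of 0.35 ± 0.14, 0.40 ± 0.16 and 0.40 ± 0.14 passed the test in all 3 feed comparisons, but with plain totals they were -0.19, -0.11 and 0.062 and none passed. Each call was also lost without 1 of several animals. In LFH against HFH the call was kept in 8 of 16 fits that each left out 1 animal, and lost without LFH animals 5, 25, 46 or 92 or HFH animals 6, 9, 61 or 88 (edgeR adjusted p up to 0.0775). In HFL/LFH against HFL/HFH it was kept in 4 of 12, and lost without HFL/HFH animals 19, 22, 30 or 84 or HFL/LFH animals 3, 4, 32 or 58 (up to 0.121). In HFL/LFL against HFL/HFL it was lost without HFL/LFL animals 13 or 17 (up to 0.0699). The row of the iron-sulphur subunit SDHB carries the same counts as ATP13A2, a gene of another pathway, so that its values cannot be assigned to SDHB.

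Complex III moves electrons from ubiquinol to cytochrome c. UQCRC1, a core subunit, had medians of 356 CPM in LFH (276 to 413) and 243 CPM in HFH (208 to 312), and changed by 0.48 ± 0.09, 0.32 ± 0.10 and 0.32 ± 0.09 in the 3 feed comparisons (edgeR adjusted p = 1.09e-05, 0.00984 and 0.00408). All 3 signs turned with plain totals, to -0.078, -0.15 and -0.012, none of which passed. UQCRH, the hinge subunit, shares its counts with UQCRHL. Its LFH animals had 261 to 403 CPM and its HFH animals 171 to 227 CPM, and the log2 fold change was 0.64 ± 0.09 (edgeR adjusted p = 2.50e-07). In HFL/LFL against HFL/HFL its difference of 0.28 ± 0.10 passed (edgeR adjusted p = 0.0172) but not without HFL/LFL animal 44 (0.0725). With plain totals UQCRH differed by 0.10, -0.018 and -0.037 in the 3 feed comparisons, and none passed.

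Complex IV reduces oxygen. COX6A1 had 353 to 495 CPM in LFH and 230 to 311 CPM in HFH, with no animal in common ranges, and log2 fold changes of 0.68 ± 0.09, 0.42 ± 0.10 and 0.41 ± 0.09 in the 3 feed comparisons. NDUFA4 changed by 0.69 ± 0.09, 0.45 ± 0.10 and 0.31 ± 0.09, and COX7A2, the isoform found in liver, by 0.74 ± 0.09, 0.35 ± 0.11 and 0.29 ± 0.10. None of these differences passed with plain totals, where they were 0.13, -0.061 and 0.089 for COX6A1, 0.15, -0.014 and -0.016 for NDUFA4, and 0.18, -0.097 and -0.032 for COX7A2. COX4I1, the ubiquitous form of subunit 4, went from a median of 562 CPM in HFH (448 to 756) to 960 CPM in LFH (789 to 1330), and its log2 fold change was 0.73 ± 0.12 (edgeR adjusted p = 2.77e-06). With low vitC its difference of 0.18 ± 0.12 missed the threshold (edgeR adjusted p = 0.270). Plain totals gave 0.18 in LFH against HFH and -0.15 with low vitC, and neither passed. The other isoform, COX4I2, was at a median of 0.278 to 0.559 CPM in each group. NDUFA4L2, a paralogue of NDUFA4, was at medians of 3.63 to 6.40 CPM and was not called in any feed comparison.

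The carriers held the largest changes of the module in both directions. SLC25A42, which exchanges coenzyme A with adenine nucleotides, ranged from 87.3 to 248 CPM in LFH (median 165) and from 14.8 to 82.6 CPM in HFH (median 58.7). No HFH animal reached the lowest LFH animal, and the log2 fold change was 1.70 ± 0.32, or 3.26-fold (edgeR adjusted p = 1.92e-05). The medians after the switch were 159 CPM for HFL/LFL and 219 CPM for HFL/LFH, against 57.0 CPM in HFL/HFL and 69.5 CPM in HFL/HFH. The log2 fold changes were 1.71 ± 0.37 with high vitC (edgeR adjusted p = 0.000243) and 1.65 ± 0.31 with low vitC (edgeR adjusted p = 5.42e-05). With plain totals they were 1.19, 1.23 and 1.35 in LFH against HFH, HFL/LFH against HFL/HFH and HFL/LFL against HFL/HFL, and all passed.

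SLC25A1 exports citrate for fatty acid and sterol synthesis, and SLC25A11 exchanges 2-oxoglutarate for malate in the shuttle that brings reducing equivalents into mitochondria. SLC25A1 had 373 to 658 CPM in LFH (median 478) and 130 to 272 CPM in HFH (median 222), which did not overlap, and the log2 fold change was 1.28 ± 0.16 (edgeR adjusted p = 9.52e-09). After the switch it differed by 1.11 ± 0.18 with high vitC (edgeR adjusted p = 5.75e-06) and 0.69 ± 0.16 with low vitC (edgeR adjusted p = 0.000625). SLC25A11 had medians of 419 CPM in LFH (271 to 493) and 171 CPM in HFH (136 to 192). It differed without overlap in all 3 feed comparisons, by 1.27 ± 0.15, 1.05 ± 0.17 and 0.93 ± 0.15 (edgeR adjusted p = 2.03e-09, 3.63e-06 and 3.40e-06). With plain totals the differences of SLC25A1 were 0.73, 0.63 and 0.35 and those of SLC25A11 were 0.71, 0.57 and 0.61, and all passed. The HFL/LFL animal 53 stood apart at 638 CPM, above the next animal at 332 CPM.

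SLC25A29 carries basic amino acids such as arginine. It had medians of 12.6 CPM in LFH (5.57 to 16.5) and 6.81 CPM in HFH (5.85 to 10.0), and one LFH animal lay below all HFH animals. The difference of 0.72 ± 0.20 (edgeR adjusted p = 0.00229) was followed after the switch by 1.35 ± 0.23 with high vitC and 1.63 ± 0.20 with low vitC, both without overlap (edgeR adjusted p = 8.05e-06 and 1.78e-08). SLC25A4, an ADP/ATP carrier, was among the more counted members, with 746 to 1090 CPM in LFH and 375 to 605 CPM in HFH. Its log2 fold changes were 0.82 ± 0.11, 0.58 ± 0.13 and 0.55 ± 0.12 (edgeR adjusted p = 9.89e-08, 0.000445 and 0.000213). Plain totals gave 0.13, 0.87 and 1.33 for SLC25A29, of which the latter 2 passed. For SLC25A4 they gave 0.27, 0.10 and 0.23, with that in HFL/LFH against HFL/HFH missing the threshold. SLC25A22, a glutamate carrier, was also higher in all 3 comparisons, but its counts are those of PIDD1 as well, its neighbour in a different assembly.

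Other carriers of central routes changed less. SLC25A20, which brings acylcarnitines into the matrix for beta-oxidation, had 200 to 298 CPM in LFH (median 223) and 80.1 to 205 CPM in HFH (median 153). It was higher in LFH by 0.69 ± 0.15 (edgeR adjusted p = 0.000139), while the differences of 0.37 ± 0.17 and 0.24 ± 0.15 after the switch missed the threshold (edgeR adjusted p = 0.0836 and 0.204). With plain totals none of the 3 passed, at 0.16, -0.089 and -0.083. The phosphate carrier SLC25A3 differed by 0.05 ± 0.09 and 0.11 ± 0.10 in the former comparisons (edgeR adjusted p = 0.679 and 0.451). It was higher by 0.23 ± 0.09 in HFL/LFL against HFL/HFL (edgeR adjusted p = 0.0419), a call lost without HFL/HFL animals 52, 55, 75, 81 or 93 or HFL/LFL animals 49, 53 or 68. Without animal 49, the highest of its group, the edgeR adjusted p was 0.214. With plain totals SLC25A3 was lower by -0.51 and -0.39 in the former comparisons, both called, and stood at -0.095 in the latter, which did not pass. The dicarboxylate carrier SLC25A10 was called in none of the 3. The row of the ADP/ATP carrier SLC25A5 shares its counts with UBE2A, so that its call in HFL/LFL against HFL/HFL (0.48 ± 0.12) cannot be assigned to it.

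Lower on low fat feed in all 3 comparisons were SLC25A24, UCP2, SLC25A45 and SLC25A43. SLC25A24, the calcium-regulated carrier of ATP-Mg and phosphate, had 11.1 to 26.6 CPM in LFH and 35.7 to 81.8 CPM in HFH. The ranges did not overlap in any of the 3 comparisons, and the log2 fold changes were -1.61 ± 0.18, -1.40 ± 0.20 and -0.97 ± 0.19 (edgeR adjusted p = 5.02e-10, 5.07e-07 and 5.53e-05). UCP2, an uncoupling protein that also moves metabolites, had 45.4 to 117 CPM in LFH (median 72.4) and 111 to 321 CPM in HFH (median 167). A single LFH animal lay above the lowest HFH animal.

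UCP2 after the switch had medians of 118 CPM for HFL/LFL and 65.5 CPM for HFL/LFH, against 232 CPM in HFL/HFL and 209 CPM in HFL/HFH. Its log2 fold changes were -1.33 ± 0.22, -1.37 ± 0.25 and -1.24 ± 0.23 (edgeR adjusted p = 2.71e-06, 3.47e-05 and 5.44e-05). SLC25A45 had medians of 5.71 CPM in LFH (3.62 to 9.34) and 13.9 CPM in HFH (9.97 to 20.4), with -1.23 ± 0.23, -1.34 ± 0.26 and -1.24 ± 0.24 in the 3 comparisons, none with overlap. SLC25A43 differed by -0.65 ± 0.16, -0.93 ± 0.19 and -0.57 ± 0.17. With plain totals the 4 carriers were lower by more in each comparison, from -0.90 for SLC25A43 with low vitC to -2.17 for SLC25A24 in LFH against HFH. UCP3 stood near the floor, with a median of 0.674 CPM in LFH and of 0 to 0.217 CPM in the other groups, and was called in no comparison.

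**Figure D3:**
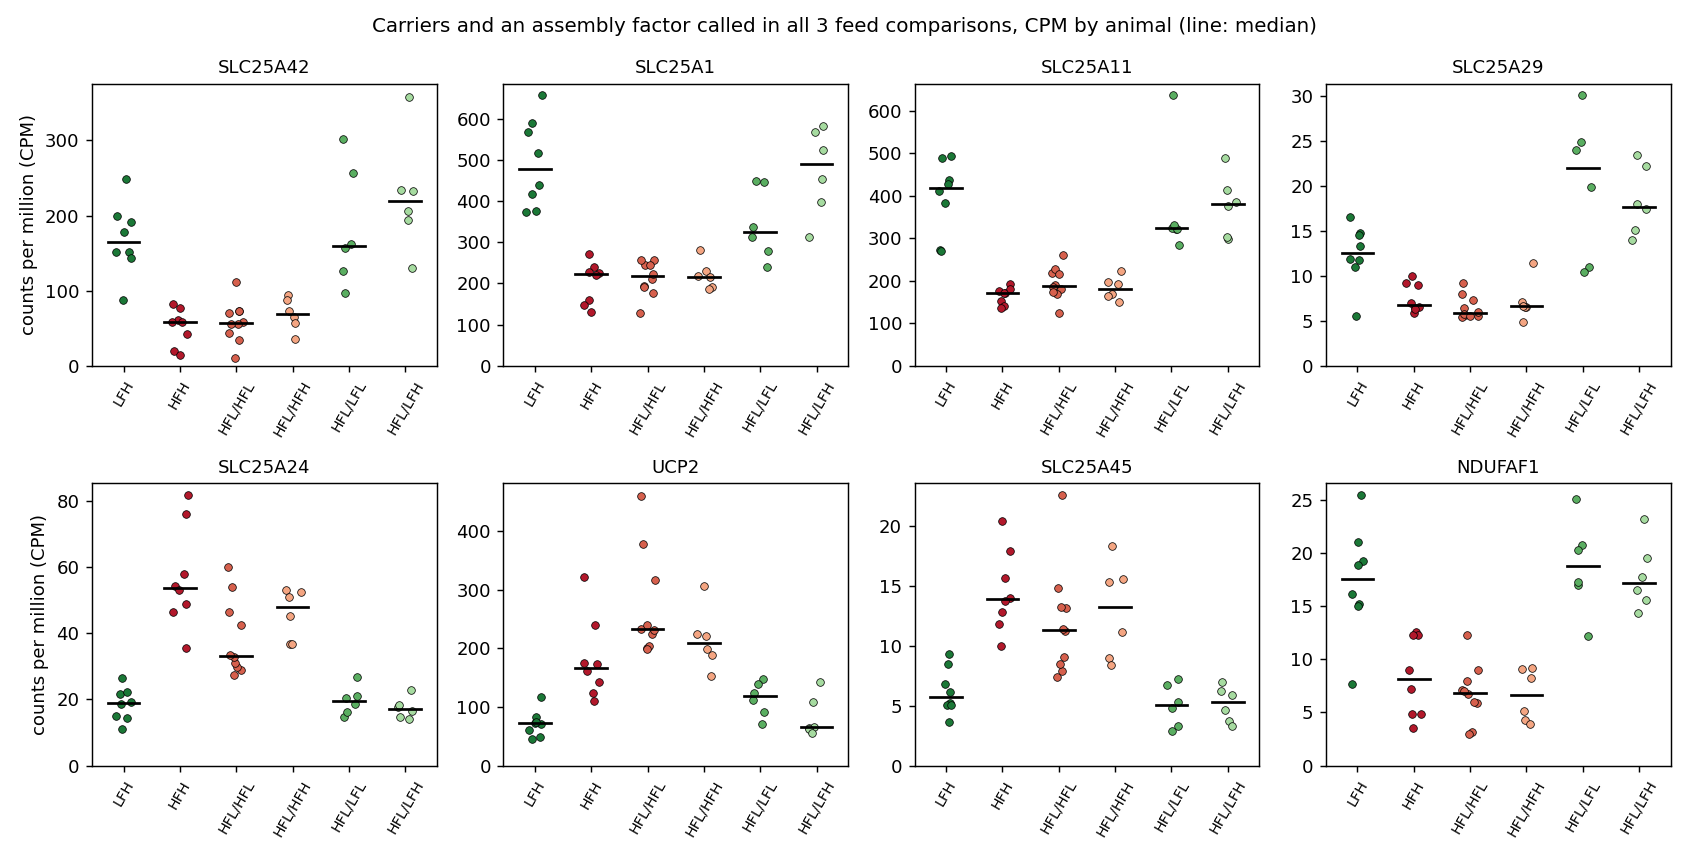
CPM (TMM-scaled, linear axes from 0) of 7 carriers and the complex I assembly factor NDUFAF1 in each animal of the 6 groups, with a line at the median. SLC25A42, SLC25A1, SLC25A11, SLC25A29 and NDUFAF1 are higher in the 3 groups that ended on low fat feed, and SLC25A24, UCP2 and SLC25A45 are lower there.

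For the import machines, TOMM20, a receptor for precursor proteins on the outer membrane, had 124 to 138 CPM in LFH (median 129) and 96.0 to 115 CPM in HFH (median 105), without overlap. Its log2 fold changes were 0.30 ± 0.07, 0.23 ± 0.08 and 0.35 ± 0.07 (edgeR adjusted p = 0.000181, 0.0138 and 6.25e-05). By plain totals its difference was -0.25 in LFH against HFH and -0.24 in HFL/LFH against HFL/HFH, both called lower, and 0.028 in HFL/LFL against HFL/HFL, which did not pass. TIMM44, which ties the import motor to the inner membrane channel, had medians of 77.8 CPM in LFH and 64.2 CPM in HFH, and changed by 0.30 ± 0.09, 0.28 ± 0.10 and 0.23 ± 0.09. Those signs also turned with plain totals, to -0.26, which was called lower, and to -0.19 and -0.11, which did not pass. Its call in HFL/LFH against HFL/HFH was lost without HFL/HFH animals 15 or 19 or HFL/LFH animal 4 (edgeR adjusted p up to 0.0784), and in HFL/LFL against HFL/HFL without HFL/HFL animals 12, 29 or 52 or HFL/LFL animals 17, 53 or 68 (up to 0.103). The remaining 11 import genes included none that was called in all 3 feed comparisons.

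Some cell type markers were called in the same feed contrasts, where 21.6% of all symbols were higher and 27.5% lower in LFH than in HFH, and their part in the values above was not tested. The 4 hepatocyte markers in the table were all higher in LFH than in HFH, with summed levels of 113375 to 238309 CPM in LFH and 27316 to 97913 CPM in HFH. The 3 cholangiocyte markers KRT7, KRT19 and EPCAM were all lower, at 149 to 390 CPM in LFH and 700 to 1300 CPM in HFH. Of 8 macrophage markers 2 were higher and 4 lower, and their sums overlapped (872 to 1922 and 687 to 1733 CPM). Of 7 stellate cell and myofibroblast markers 1 was higher and 4 lower, at 452 to 927 CPM in LFH and 921 to 2829 CPM in HFH. The 7 T cell markers were summed at 176 to 248 CPM in LFH and 60.98 to 121 CPM in HFH, without overlap, though 1 was called higher and 1 lower. Of 5 endothelial markers 1 was higher and 1 lower, at 686 to 939 and 525 to 692 CPM, and in HFL/LFL against HFL/HFL 4 of 5 were higher, at 732 to 913 and 467 to 693 CPM. After the switch the cholangiocyte markers were again all lower on low fat feed, and hepatocyte markers were higher for 2 of 4 with high vitC and 3 of 4 with low vitC. The background there was 16.5% higher and 19.4% lower with high vitC and 18.1% higher and 19.6% lower with low vitC. Of the 8 macrophage markers 1 was higher and 4 lower in each of these comparisons, with medians of -1.03 with high vitC and -0.89 with low vitC. The summed levels were 666 to 1437 CPM in HFL/LFH and 778 to 1915 CPM in HFL/HFH, and 1014 to 2136 CPM in HFL/LFL and 1294 to 2195 CPM in HFL/HFL. Of the 7 stellate cell and myofibroblast markers 1 was higher and 3 lower with high vitC, and 2 were higher and 3 lower with low vitC. The T cell markers summed to 170 to 217 CPM in HFL/LFH and 62.9 to 158 CPM in HFL/HFH, with 1 higher and 1 lower. With low vitC their sums overlapped (90.8 to 255 and 74.8 to 154 CPM) and 0 were called. Of 4 adipocyte markers 1 was higher and 2 lower in each of the 3 feed comparisons.

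The next question was whether the level of vitC went with the module on a given feed. No member was called between HFL/LFL and HFL/LFH by edgeR, where 0.223% of symbols were called (0.157% higher and 0.0655% lower in HFL/LFL). At an unadjusted p under 0.05 there were 4 members, against 10.9% of symbols. DESeq2 called 1 member, where 1.05% of symbols were called, and limma voom 0, where 0.498% were. Plain library totals also gave 0 members, with 0.537% of symbols called. The 3 members of smallest p were COX7A1, SLC25A1 and NDUFS7. COX7A1, the isoform of complex IV subunit 7A known from heart and muscle, had 7.95 to 9.67 CPM in HFL/LFL (median 9.04) and 9.42 to 15.4 CPM in HFL/LFH (median 13.1), with a slight overlap. The log2 fold change was -0.51 ± 0.15 (edgeR adjusted p = 0.125), and this was the member that DESeq2 called (adjusted p = 0.0474). The other alternatives gave adjusted p of 0.107 to 0.341. With plain totals COX7A1, SLC25A1 and NDUFS7 differed by -0.44, -0.38 and -0.28, and none passed. SLC25A1 had medians of 325 CPM in HFL/LFL (240 to 448) and 489 CPM in HFL/LFH (313 to 581), a difference of -0.46 ± 0.18 (edgeR adjusted p = 0.295). NDUFS7, an iron-sulphur subunit of complex I, differed by -0.33 ± 0.15 (edgeR adjusted p = 0.412).

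On continued high fat feed, HFL/HFL against HFL/HFH also gave 0 members by edgeR (0.0131% of symbols called), and 0 by DESeq2, by limma voom and by plain totals. At an unadjusted p under 0.05 there were 2 members, against 3.39% of symbols, and the ranges overlapped for every member, with 0.0262% of symbols free of overlap. HFL/HFL and HFH differed in vitC for the whole period, but not in vitC alone. The paper reports a higher energy intake in HFH than in animals on high fat feed with low vitC before the switch. It also reports that HFH animals were the heaviest after it. The part of intake and body weight in this comparison was not tested. HFL/HFL against HFH gave 0 members by edgeR (0.288% of symbols called). At an unadjusted p under 0.05 there were 37 members, against 17.4% of symbols. Here the tools differed, with 3 members called by DESeq2, where 1.9% of symbols were called, and 30 by limma voom with sample quality weights, where 7.25% were (4.17% higher and 3.08% lower). Of the 30, 26 were higher in HFL/HFL. In this comparison 6 of 7 mitochondrially encoded symbols and 5 of 8 macrophage markers had an unadjusted p under 0.05 with 0 called by edgeR, and their median log2 fold changes were 0.76 and 0.55. The summed macrophage markers were at 1294 to 2195 CPM in HFL/HFL and 687 to 1733 CPM in HFH, while 4 of 5 endothelial (median -0.29), 3 of 7 stellate cell and myofibroblast (median -0.32) and 2 of 3 cholangiocyte markers (median -0.50) also had an unadjusted p under 0.05 with 0 called. The part of these lists in the members' values was not tested. By plain totals 0 members were called, with 0.839% of symbols. Without HFH animal 88 edgeR called 11, without HFH animal 9 it called 3, and without HFL/HFL animal 29 it called 2. The interaction of vitC and feed after the switch gave 0 of 112 by edgeR, DESeq2, limma voom and plain totals. Of all symbols these called 0%, 0.0393%, 0% and 0.0262%, in that order, so that hardly any symbol was called. By edgeR 7 members had an unadjusted p under 0.05 for the interaction, against 8.24% of symbols. COX7A1 had the smallest p there (-0.73 ± 0.20, edgeR adjusted p = 0.236).

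The last comparisons asked how the switched animals stood against LFH animals that had never received high fat feed. HFL/LFH animals, now on the same feed and vitC as LFH, differed in no member by edgeR, with 0.354% of symbols called. At an unadjusted p under 0.05 there were 30 members, against 10.3% of symbols, and 1 member did not overlap, against 0.367%. DESeq2 called 1 (0.8% of symbols) and limma voom 0 (0.223% of symbols), plain totals gave 0 (0.38% of symbols), and edgeR called 1 without LFH animal 25 or LFH animal 46. The median log2 fold change of the members was -0.14, beside 0.01 for all symbols. HFL/LFL animals differed from LFH in 16 members, 15 of them lower, against 7.73% of symbols called (4.33% higher and 3.41% lower). The groups differ in vitC as well as in history. The median was -0.17, and CPM ranges did not overlap for 3 members, against 1.34% of all symbols, all 3 of them lower in HFL/LFL (0.878%). By plain library totals 6 members were called, 5 higher and 1 lower, against 11.9% of symbols (10.3% higher and 1.53% lower), and the median was -0.01 beside 0.18 for all symbols. The fit with only these groups called 6 (3.17% of symbols), DESeq2 20 (9.9% of symbols) and limma voom 11 (5.19% of symbols), and leaving out 1 animal gave 6 (HFL/LFL animal 49) to 22 (HFL/LFL animal 17), with 7 without LFH animal 27, LFH animal 79 or HFL/LFL animal 53, and 10 without LFH animal 92 or HFL/LFL animal 44.

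Among these 16 were accessory subunits of complexes I, III and IV. NDUFB8, a subunit of the membrane arm of complex I, had 206 to 237 CPM in LFH (median 216), 169 to 192 CPM in HFL/LFL (median 186) and 186 to 212 CPM in HFL/LFH (median 198), beside 132 to 164 CPM in HFH. HFL/LFL did not overlap with LFH, and the difference was -0.26 ± 0.06 (edgeR adjusted p = 0.00687). UQCR10, a small subunit of complex III, had medians of 166 CPM in LFH (146 to 229) and 131 CPM in HFL/LFL (122 to 141), again without overlap (-0.48 ± 0.12, edgeR adjusted p = 0.0123). NDUFB4 differed by -0.35 ± 0.09 (edgeR adjusted p = 0.0131). With plain totals the differences of NDUFB8, UQCR10 and NDUFB4 were -0.11, -0.33 and -0.21, and none passed.

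ATP5IF1, the inhibitor protein that blocks ATP synthase when it runs in reverse, had 125 to 256 CPM in LFH (median 171) and 97.3 to 147 CPM in HFL/LFL (median 122), and the ranges overlapped. It differed by -0.56 ± 0.13 (edgeR adjusted p = 0.00723). COX19, a factor of copper delivery to complex IV, had medians of 52.9 CPM in LFH (47.7 to 65.4) and 38.7 CPM in HFL/LFL (31.2 to 54.2) and differed by -0.45 ± 0.11 (edgeR adjusted p = 0.00982). Neither passed with plain totals, where ATP5IF1 differed by -0.42 and COX19 by -0.31. The 1 member higher in HFL/LFL was SLC25A29 (0.69 ± 0.21, edgeR adjusted p = 0.0326), and its call was lost without LFH animals 27 or 79 or HFL/LFL animals 44, 49 or 53, with an edgeR adjusted p of up to 0.132. With plain totals its difference of 0.89 passed.

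**Figure D4:**
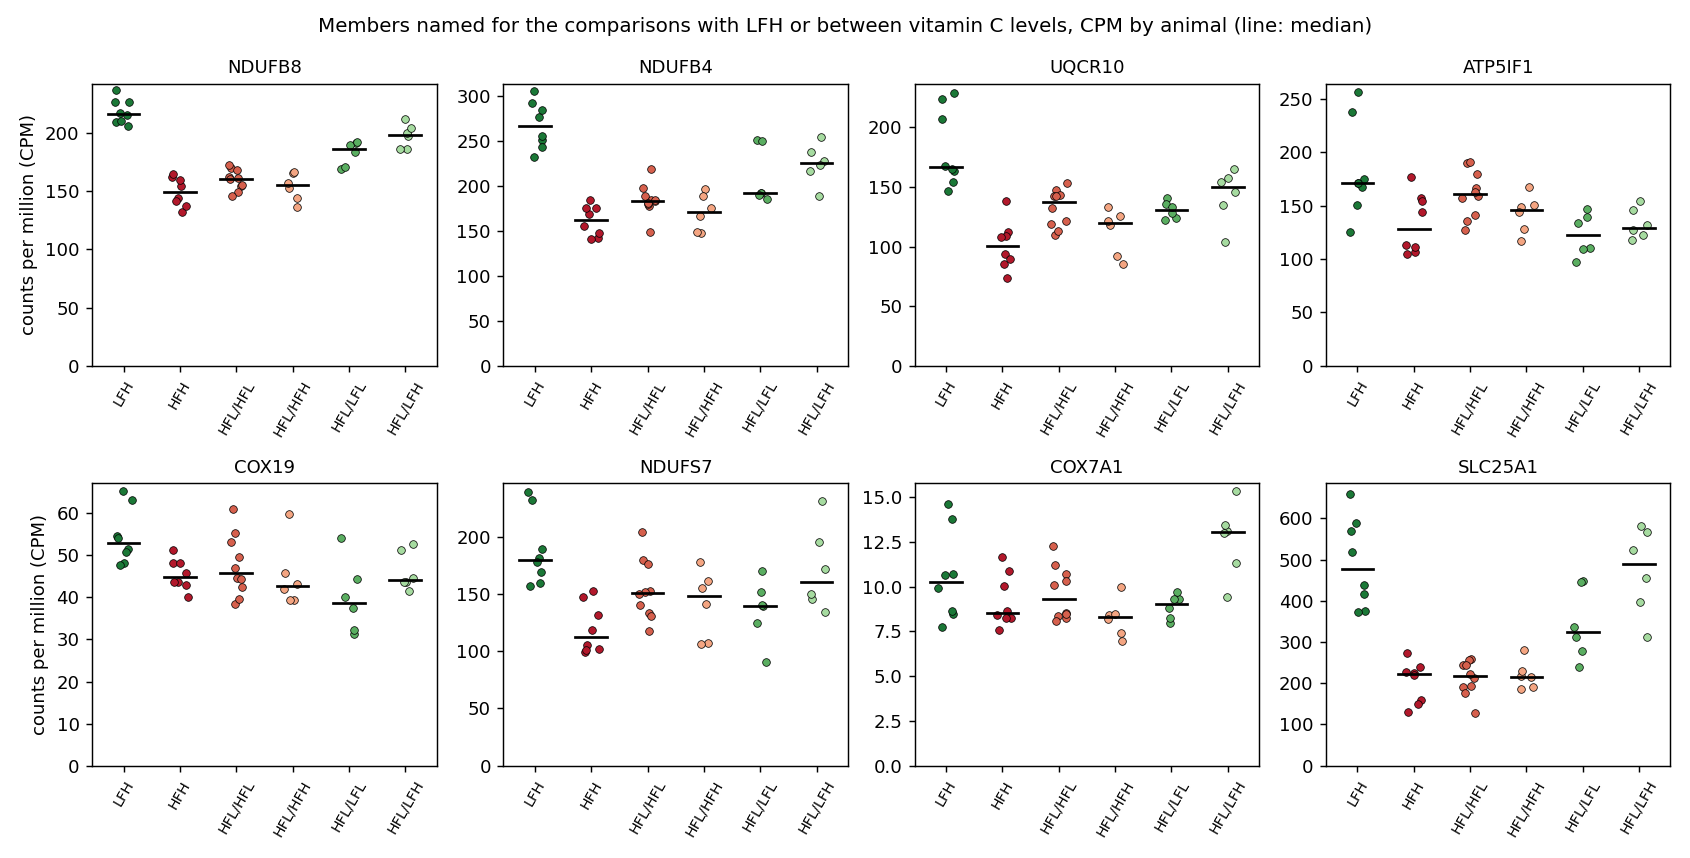
CPM (TMM-scaled, linear axes from 0) of 8 members in each animal of the 6 groups, with a line at the median. In NDUFB8 and UQCR10 all HFL/LFL animals lie below all LFH animals, and in COX7A1 the HFL/LFH animals lie at 9.42 to 15.4 CPM.

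The size of the feed difference was then compared between designs, with contrasts added after the data had been seen. Between LFH minus HFH and HFL/LFH minus HFL/HFH, edgeR, DESeq2, limma voom and plain totals gave 0 of 112 members. Of all symbols these called 0.105%, 0.262%, 0.0786% and 0.105%, in that order. By edgeR 22 members had an unadjusted p under 0.05, against 6.76% of symbols. Between LFH minus HFH and HFL/LFL minus HFL/HFL edgeR called 23 members against 5.86% of symbols (3.09% and 2.77% by direction), 22 of them with the larger low fat excess in LFH against HFH. DESeq2 called 29, 28 of them in that direction, against 8.45% of symbols, and limma voom 33, all in that direction, against 7.48%. By plain library totals 7 were called, 2 of them in that direction, against 12.8% of symbols (1.21% in that direction and 11.6% in the other). UQCR10 differed by 0.87 ± 0.16 between the designs (edgeR adjusted p = 0.00168), from its 0.85 ± 0.11 in LFH against HFH and -0.02 ± 0.12 in HFL/LFL against HFL/HFL. With TMM the values of ATP5IF1 had opposite signs, 0.45 ± 0.12 and -0.39 ± 0.13, and both passed their own tests, the latter not without HFL/LFL animal 49 (edgeR adjusted p = 0.0556). The difference was 0.83 ± 0.18 (edgeR adjusted p = 0.00472). With plain totals ATP5IF1 had the same sign in both, at -0.096 in LFH against HFH, which did not pass, and -0.72 in HFL/LFL against HFL/HFL, which did, and the difference of 0.63 missed the threshold (edgeR adjusted p = 0.0511). NDUFS7 went from 0.65 ± 0.13 to -0.17 ± 0.14 (difference 0.82 ± 0.19, edgeR adjusted p = 0.00941). SLC25A29 was the 1 member in the other direction, with -0.91 ± 0.28 (edgeR adjusted p = 0.0447). With plain totals the differences of UQCR10 (0.64) and SLC25A29 (-1.20) passed and that of NDUFS7 (0.62) did not. UQCR10, ATP5IF1, NDUFS7 and SLC25A29 were named by comparisons that share groups with this contrast, ATP5IF1 also in a fixed set. Their calls in it are therefore not separate support.

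**Figure D5:**
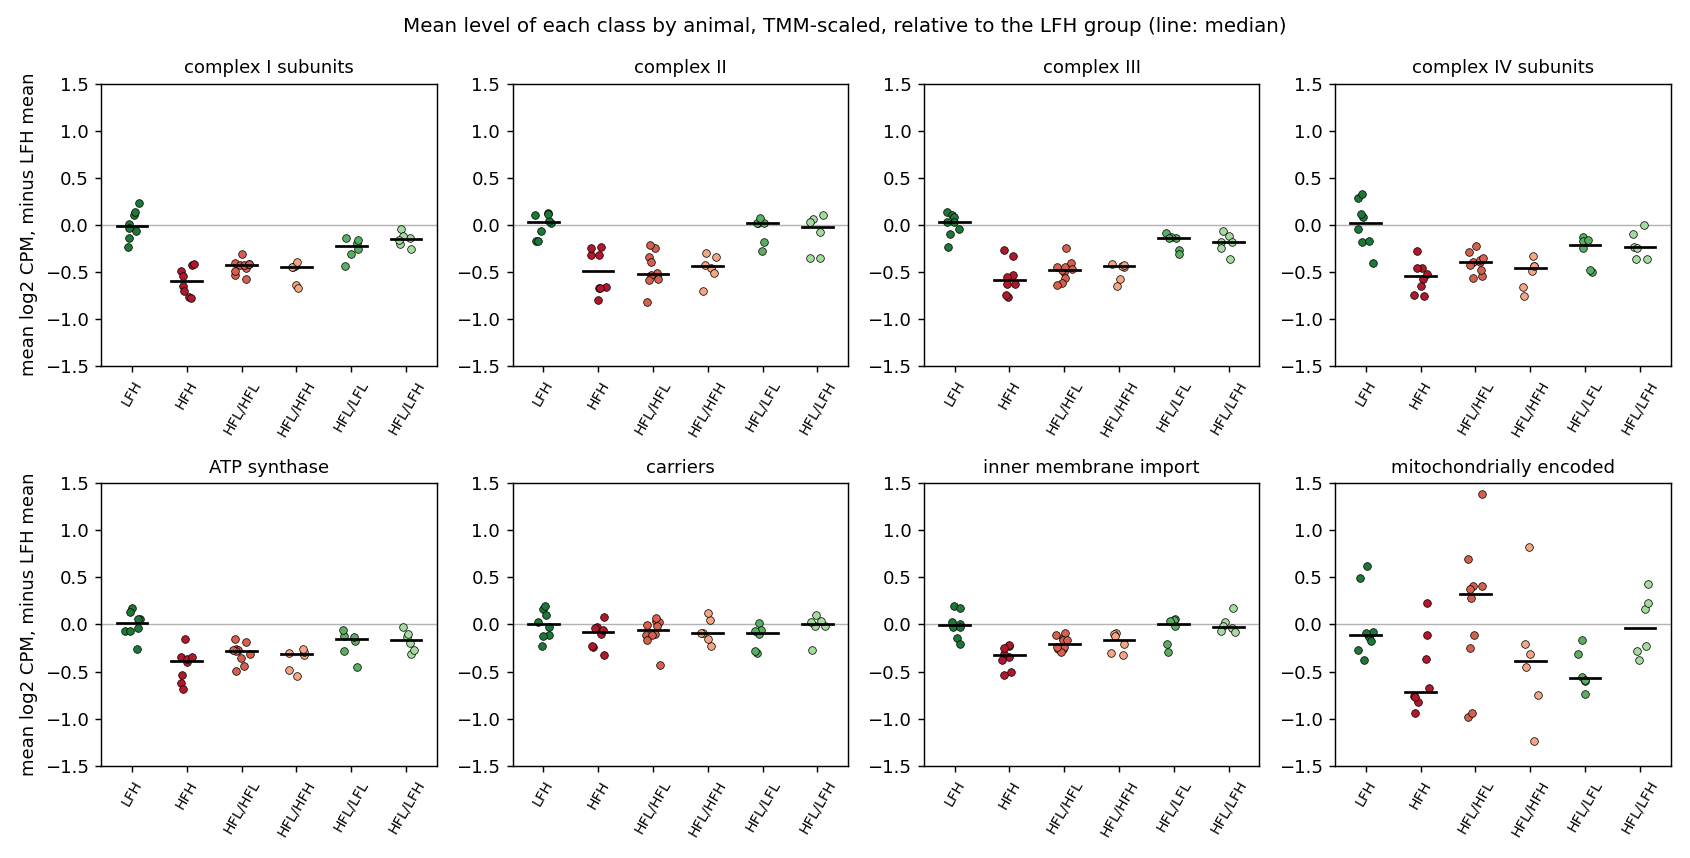
Mean log2 CPM over the genes of 7 classes and over 7 mitochondrially encoded symbols in each animal, TMM-scaled and relative to the LFH mean (0), with a line at the median of each group. The complex I subunits lie at -0.60 in HFH (median) and at -0.15 in HFL/LFH, against -0.024 and -0.17 with plain library totals, and the mitochondrially encoded symbols spread from -0.98 to 1.39 within HFL/HFL.

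Per animal and with TMM scaling, the mean over the complex I subunits, the NDUFC2 pair taken once, lay at -0.77 to -0.42 in HFH relative to the LFH mean on the log2 scale. It lay at -0.58 to -0.31 in HFL/HFL, at -0.67 to -0.39 in HFL/HFH, at -0.44 to -0.14 in HFL/LFL and at -0.26 to -0.05 in HFL/LFH. The LFH animals themselves spread from -0.24 to 0.24. With TMM the animals of HFL/LFH all lay above those of the 3 high fat groups, while HFL/LFL overlapped with them in part. With plain totals this order was absent: the ranges were -0.40 to 0.27 in HFH, -0.16 to 0.24 in HFL/HFL, -0.047 to 0.24 in HFL/HFH, -0.31 to 0.19 in HFL/LFL, -0.36 to 0.25 in HFL/LFH and -0.22 to 0.32 in LFH, and all groups overlapped. The carriers as a class lay near 0 in every group with TMM, with medians of -0.09 to 0.01. With plain totals their medians were 0.38 in HFH, 0.39 in HFL/HFL and 0.47 in HFL/HFH, beside 0.036 in HFL/LFL and 0.027 in HFL/LFH.

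Some subunits encoded by mitochondrial DNA were also measured. Of 7 such symbols, MT.CO2 and MT.CO3 were higher in LFH than in HFH, by 0.70 and 0.63, where 21.6% of all symbols were higher, and none was called in HFL/LFH against HFL/HFH. In HFL/LFL against HFL/HFL 4 were lower on low fat feed, MT.CO1, MT.CYB, MT.ND4 and MT.ND6, with log2 fold changes of -1.13, -1.09, -0.78 and -0.88, where 19.6% of all symbols were lower. With plain totals 0 of 7 were called in LFH against HFH (MT.CO2 at 0.14 and MT.CO3 at 0.070) and in HFL/LFH against HFL/HFH. In HFL/LFL against HFL/HFL 6 of 7 were then lower, against 39.3% of all symbols, with MT.CO1, MT.CYB, MT.ND4 and MT.ND6 at -1.48, -1.45, -1.15 and -1.22. MT.CYB, part of complex III, had 1941 to 3130 CPM in HFL/LFL (median 2668) and 2329 to 11266 CPM in HFL/HFL (median 5436). These libraries were made from polyadenylated RNA. The 7 symbols took 0.878% to 6.15% of the counts of an animal.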

How the data were processed

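Liver RNA of 44 guinea pigs was measured by sequencing of polyadenylated RNA. The authors trimmed reads with Trimmomatic 0.38.0, aligned them with HISAT2 2.1.0 to the Ensembl guinea pig genome Cavpor3.0, assembled and quantified transcripts with StringTie 2.1.1, and gave genes the symbols of their human orthologues (BioMart). The deposited counts are raw, in rows named by symbol, some symbols having a second row, written as in NDUFS4.1, and the deposited log2-scale values had been variance-stabilized by the authors with DESeq2. How StringTie output became counts is not given in the sources used here. Rows that name no gene (236, 2.30% to 3.07% of an animal's counts) were left out. Of the 112 members 17 share their counts with another row, 10 of them with a named row, so that 109 profiles are distinct. Reads from overlapping genes may be split or merged.

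Counts were fitted in R 4.3.3 with edgeR 4.0.16 (TMM, quasi-likelihood F test) with all 6 groups in 1 fit, over 7629 symbols with at least 200 counts in total. P-values were adjusted by the Benjamini-Hochberg procedure over all symbols, with 0.05 as the threshold. The 9 planned comparisons were the feed, vitC and history contrasts and the interaction; 2 contrasts of feed differences were added after the data were seen. Levels are CPM of TMM-scaled library sizes, and the error of a log2 fold change is its standard error. The files hold no gene lengths, so levels were compared within a gene only. DESeq2 1.42.0 and limma 3.58.1 (voom with sample quality weights), other scalings and filters, and leaving out each animal were alternatives. Scripts were tested on simulated data.

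The members and the gene lists were chosen with earlier results of these data known. Named are up to 4 members per class and direction called in all 3 feed comparisons with the largest mean change, up to 5 of smallest p called in each other comparison, the 3 of smallest p in HFL/LFL against HFL/LFH, and a fixed set of carriers and isoforms. SLC25A22 was named after its values were seen. Sequences and coordinates are not given here, since the gene annotation used for names belongs to a different assembly. Its gene order served to call PIDD1 a neighbour of SLC25A22.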

Additional observations from a re-analysis of the deposited data

Results flagged for a closer look

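A single animal stood apart from its group in 12 of 252 sets of values (named members by group), about as many as the 1 in 20 that chance gives. In HFL/HFH these were animal 30 in COX19 (59.8 CPM) and SLC25A29 (11.4 CPM) and animal 20 in SLC25A20 (220 CPM). In LFH animal 79 was high in COX4I2 (3.32 CPM) and SDHD (204 CPM) and animal 92 in UCP3 (1.49 CPM), and in HFH animal 6 was high in COX4I2 (1.58 CPM). In HFL/LFL animal 53 was high in SLC25A11 (638 CPM), animal 49 in SLC25A3 (487 CPM) and animal 17 in UCP3 (0.572 CPM). HFL/HFL animal 29 was high in SLC25A45 (22.6 CPM), and HFL/LFH animal 33 was low in SLC25A5 (71.6 CPM).

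The feed difference of 9 named members differed between LFH minus HFH and HFL/LFL minus HFL/HFL by the test of that difference, on the log2 scale: UQCR10 by 0.87, ATP5IF1 by 0.83, NDUFS7 by 0.82, COX4I1 by 0.56, NDUFB4 by 0.54, COX19 by 0.51, COX7A2 by 0.45, NDUFB8 by 0.36 and SLC25A29 by -0.91. The calls of COX4I1, COX7A2, COX19 and SLC25A29 were each lost in some fits that left out 1 animal. COX4I1 kept its call in 10 of 32 such fits and SLC25A29 in 13 of 32. With plain library totals the calls of UQCR10 and SLC25A29 were kept and those of the other 7 were lost. Of all symbols 5.86% were called in this contrast. NDUFB8, COX19, UQCR10, NDUFB4 and ATP5IF1 were named for their calls in HFL/LFL against LFH, ATP5IF1 also in the fixed set. NDUFS7 and SLC25A29 were named by other comparisons that share groups with the contrast. The calls of these genes in it are therefore not separate support.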

How the results depend on the processing

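With plain library totals instead of TMM, 41 members were called in LFH against HFH, 31 in HFL/LFH against HFL/HFH, 6 in HFL/LFL against LFH and 7 in the added contrast of LFH minus HFH against HFL/LFL minus HFL/HFL. With totals that also left out the 10 most abundant symbols, these counts were 40, 27, 4 and 9, against 63.5%, 47.4%, 10.1% and 9.82% of symbols, and their split differed from that by plain totals. It was 20 higher and 20 lower in LFH against HFH (9 and 32 by plain totals), 11 and 16 in HFL/LFH against HFL/HFH (6 and 25), 3 and 1 in HFL/LFL against LFH (5 and 1), and 6 and 3 in the added contrast (2 and 5). In HFL/LFL against HFL/HFL it was 13 and 22 (10 and 27), or 35 called against 44.5% of symbols. Both scalings were added after seeing the data. Of 117 calls or named differences, 39 kept their side of the threshold with plain totals, 48 fell below it and 30 changed sign. In LFH against HFH the log2 fold changes that turned were TOMM20 -0.25, ATP5IF1 -0.096, SDHB -0.27, COX19 -0.29, SDHA -0.19, TIMM44 -0.26, NDUFAF5 -0.23, UQCRC1 -0.078 and NDUFB8 -0.0029. In HFL/LFH against HFL/HFH they were TOMM20 -0.24, SDHD -0.027, NDUFB4 -0.065, UQCRH and UQCRHL -0.018, SDHA -0.11, TIMM44 -0.19, COX6A1 -0.061, UQCR10 -0.10, COX7A2 -0.097, UQCRC1 -0.15, NDUFB8 -0.093 and NDUFA4 -0.014. In HFL/LFL against HFL/HFL they were UQCRH and UQCRHL -0.037, TIMM44 -0.11, COX7A2 -0.032, UQCRC1 -0.012, SLC25A3 -0.095, NDUFB8 -0.14 and NDUFA4 -0.016. The alternative changes the library scaling alone.

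No call changed sign under RLE or upper-quartile normalization, no filter, filterByExpr, distinct counts, only the groups compared, DESeq2, limma voom or library sizes without mitochondrially encoded symbols, the last of which was added after seeing the data. Some of the 117 results lost their call: 11 with upper-quartile normalization, 11 with only the groups compared, 9 with no filter and 6 with limma voom. DESeq2 called 1 member in HFL/LFL against HFL/LFH, 3 in HFL/HFL against HFH and 1 in HFL/LFH against LFH, where edgeR called none. Of all symbols it called 1.05%, 1.9% and 0.8% there, and edgeR 0.223%, 0.288% and 0.354%. For HFL/HFL against HFH limma voom called 30, against 7.25% of symbols. Only the groups compared gave 6 in HFL/LFL against LFH, against 3.17% of symbols. The cause of these differences was not tested. Leaving out 1 animal gave 77 to 84 members in LFH against HFH, 43 to 52 in HFL/LFH against HFL/HFH, 45 to 52 in HFL/LFL against HFL/HFL, 0 to 11 in HFL/HFL against HFH, 0 to 1 in HFL/LFH against LFH and 6 to 22 in HFL/LFL against LFH. It gave 15 (without LFH animal 79) to 34 (without HFH animal 88) in the added contrast, and 0 in each fit of the other 4 comparisons. No paired analysis was possible because the numbers in the labels name animals, each in 1 group. Depth limits UCP3 and COX4I2, which lay at or near the floor in most animals.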

Other observations

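Other genes of mitochondria, from lists written with earlier results of these data known, gave the following counts in LFH against HFH, where 49.1% of all symbols were called. Of 50 genes of the mitochondrial ribosome, which translates the subunits encoded by mitochondrial DNA, 42 were higher and 2 lower, with a median log2 fold change of 0.40. After the switch 15 were higher and 2 lower with high vitC, where 35.9% of all symbols were called (16.5% higher and 19.4% lower), and 19 higher and 3 lower with low vitC, where 37.7% were (18.1% higher and 19.6% lower). Of 12 genes of the citric acid cycle 9 were higher and 1 lower in LFH. IDH2, the NADP-dependent isocitrate dehydrogenase of the matrix, differed by 1.24 and SUCLG2, a subunit of succinyl-CoA synthetase, by 1.11, while IDH3A, a subunit of the NAD-dependent enzyme, was lower, at -0.63.

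Of 22 electron carriers and further assembly factors 13 were higher and none lower in LFH. ETFB and ETFA, which hand electrons from beta-oxidation to the chain, differed by 1.30 and 0.88. Of 19 further genes of import and protein quality 13 were higher and none lower. Of 9 genes of membrane dynamics and outer channels 4 were higher and 1 lower, among them MPC2, a subunit of the pyruvate carrier, at 1.59. Of 7 genes of biogenesis and the mitochondrial genome 2 were higher and 1 lower. PPARGC1A, a coactivator of mitochondrial biogenesis, differed by 0.21 (edgeR adjusted p = 0.613) and TFAM by 0.25 (edgeR adjusted p = 0.111). These genes were named after their values were seen, and the values are relative to the typical symbol.

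Beside HFL/LFL against LFH, the summed macrophage markers were at 1014 to 2136 CPM in HFL/LFL and 872 to 1922 CPM in LFH, and 3 of 8 were higher in HFL/LFL. Hepatocyte markers were at 84888 to 186156 CPM in HFL/LFL and 113375 to 238309 CPM in LFH, with 1 of 4 lower. Of 3 cholangiocyte markers 1 was higher (median log2 fold change 0.98) and all 3 had an unadjusted p under 0.05. Of 7 T cell markers 1 was higher (median 0.55), with 4 at an unadjusted p under 0.05, and 2 of 5 B cell markers and 1 of 7 stellate cell and myofibroblast markers were higher. Of all symbols 4.33% were higher and 3.41% lower by edgeR. The part of these lists in the differences of that comparison was not tested.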
